A study of Mus musculus with 6 samples.

Results

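The family of miR-148a, miR-148b and miR-152 was followed through a deposited table of mature miRNA counts from mouse pancreas. The members were the rows of these names with the ending -5p or -3p: mmu-miR-148a-3p, mmu-miR-148a-5p, mmu-miR-148b-3p, mmu-miR-148b-5p, mmu-miR-152-3p and mmu-miR-152-5p, written below without the species prefix. They come from 3 hairpins, Mir148a, Mir148b and Mir152, and made up 6 rows of the 1414 in the table, and 5 of them passed the filter on low counts that left 499 rows for testing. The model group held 3 libraries, replicates 56, 57 and 59, from wild-type C57BL/6 mice of 22 to 25 g that received caerulein in 7 intraperitoneal injections 1 hour apart, with lipopolysaccharide (LPS) added to the last. The control group held 3 libraries, replicates 43, 44 and 45, from mice of the same strain and weight that received saline on the same schedule. The labels state a caerulein dose of 50 mg/kg and tissue collection 24 hours after the start. Caerulein is commonly dosed in micrograms in mice, and the milligrams of the labels may be an error. Caerulein is a cholecystokinin analogue that overstimulates acinar cells, the enzyme-secreting cells of the pancreas, and LPS is a bacterial cell wall component. With no group on a single agent, the effects of caerulein and LPS cannot be told apart. Whether every library stems from a separate mouse is not stated, and p-values measure the spread between libraries, some of which may be technical.

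A miRNA hairpin is cut into a duplex of a 5p and a 3p strand, and usually one strand is kept as the guide in an Argonaute protein while its partner is degraded. The guide finds messenger RNAs mainly through its seed, the bases 2 to 8 from its 5′ end, so miRNAs with one seed are grouped as a family with overlapping targets. In this family the 3p strand is the guide. miR-148a is known as an abundant miRNA of the exocrine pancreas and the liver, DNA methyltransferase mRNAs are among its described targets, and lower levels have been described in human pancreatic ductal adenocarcinoma.

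The 3p arms are shown because their shared seed defines the family and because they carry most of its reads. RefSeq sequences on GRCm38.p6 are given 5′ to 3′ with the seed in capitals, and all 6 family sequences were the same as those in the deposited table.
miR-148a-3p: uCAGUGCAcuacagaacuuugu
miR-148b-3p: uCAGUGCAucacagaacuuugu
miR-152-3p: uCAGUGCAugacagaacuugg
Counted from the 5′ end, miR-148b-3p differed from miR-148a-3p by C9U and U10C. miR-152-3p differed from miR-148a-3p by C9U, U10G and U20G and was 1 base shorter. Between miR-148b-3p and miR-152-3p the differences were C10G and U20G. All of them lay outside the seed. With 2 to 3 differing bases, reads of an abundant member that carry errors or edits could be counted as another member, and the labels do not state how many mismatches the counting allowed.

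The seed CAGUGCA stood in 4 rows of the table, of which 3 were the known family members. The last was a predicted miRNA of 18 nt listed on chromosome 3, with the sequence aCAGUGCAcgugucucca. It had 6, 12 and 13 counts in model replicates 56, 57 and 59, against 10, 23 and 9 in control replicates 43, 44 and 45. It was below each family guide in every library.

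The 5p arms are shown because they do not share 1 seed.
miR-148a-5p: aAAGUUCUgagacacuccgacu
miR-148b-5p: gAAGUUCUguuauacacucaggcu
miR-152-5p: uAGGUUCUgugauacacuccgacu
miR-148a-5p and miR-148b-5p share the seed AAGUUCU, and miR-152-5p has AGGUUCU. No other row of the table had either. The 5p arms were less alike than the 3p arms. Over the aligned bases from the 5′ end, without gaps, miR-148b-5p and miR-152-5p were identical at 79.2% of 24 bases, miR-148a-5p and miR-148b-5p at 59.1% of 22, and miR-148a-5p and miR-152-5p at 54.5% of 22. The corresponding identities of the 3p arms were 90.5% for miR-148b-3p with miR-152-3p, 90.9% for miR-148a-3p with miR-148b-3p and 85.7% for miR-148a-3p with miR-152-3p.

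In GRCm38.p6 the Mir148a hairpin lies at chr6:51269812-51269910 on the minus strand. Entries of the hairpin's own name left aside, it overlaps no gene of the GENCODE M21 annotation. The nearest other gene is the lincRNA Gm32479 at a distance of 13622 bp. The Mir148b hairpin lies at chr15:103285125-103285221 on the plus strand, in an intron of Copz1. The Mir152 hairpin lies at chr11:96850393-96850465 on the plus strand, in an intron of Copz2. Both hosts are protein-coding, on the same strand as their hairpin, and encode zeta subunits of the COPI coat, which carries vesicles between Golgi and endoplasmic reticulum. The hairpin of Mir148a, the source of most family reads, is shown with its arms in capitals to place both strands.
Mir148a: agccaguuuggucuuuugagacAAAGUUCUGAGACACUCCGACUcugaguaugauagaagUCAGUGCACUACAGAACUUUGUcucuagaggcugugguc

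Total counts ran from 1943693 to 3006220 per library, and levels are given as CPM, read counts set on a common library size with TMM factors, which align the typical miRNA of the libraries. CPM levels of different miRNAs are compared as read levels only, since ligation can favour some sequences. The labelled tissue carried its markers: acinar miR-216a-5p was between 19256 and 35582 CPM and islet miR-375-3p between 30851 and 69441 CPM over the 6 libraries. In bulk tissue, fewer cells of a type and less miRNA per cell cannot be told apart.

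The 6 arms kept 1 order of level in each of the 6 libraries, miR-148a-3p first, then miR-152-3p, miR-148a-5p, miR-148b-3p, miR-152-5p and miR-148b-5p. The ranges of neighbouring arms over the 6 libraries did not overlap. The guide miR-148a-3p had 57692, 66582 and 70372 counts in model replicates 56, 57 and 59, against 59718, 49485 and 74563 in control replicates 43, 44 and 45. It ranked 13 to 18 among all rows in model libraries and 5 to 19 in control libraries. The Copz2-hosted guide, miR-152-3p, ranked 56 to 67 in model libraries and 39 to 75 in control libraries. The Copz1-hosted guide, miR-148b-3p, stood far below, at ranks 235 to 258 in model libraries and 254 to 259 in control libraries.

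**Figure D1:**
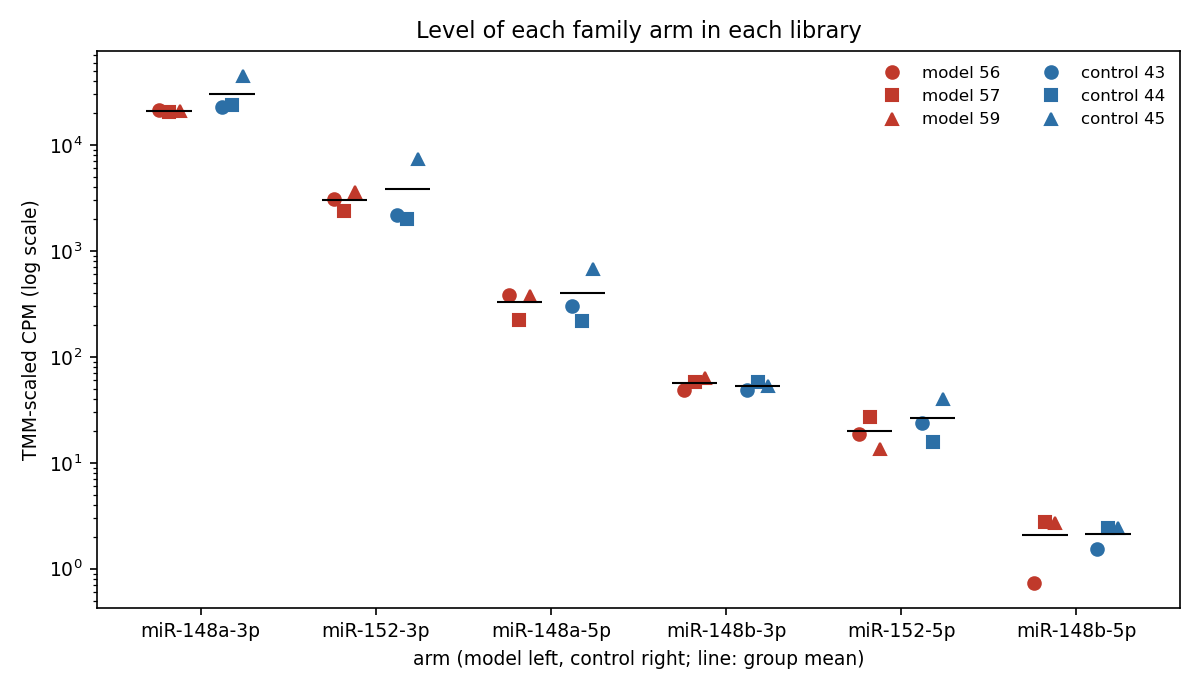
TMM-scaled CPM (log scale) of the 6 family arms, ordered by level, with 1 point per library, model libraries left and control libraries right of each arm, and the group mean as a line. The order of the arms is the same in every library, and control replicate 45 is the highest library for 4 of the 6 arms.

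None of the 5 tested family arms passed the threshold of an adjusted p of 0.05 between model and control pancreas with edgeR's quasi-likelihood test, in a table where 1.20% of rows did, 1.00% higher and 0.200% lower. At an unadjusted p under 0.05 the number was also 0 of 5, where 57 of the 499 rows were higher and 62 lower. DESeq2 called 0 of 5, where it called 19 of the 499 rows higher and 19 lower. Of the 5, 4 had negative and 1 had a positive log2 fold change, with a median of -0.35, beside 248 of 499 negative and a median of 0.00 over all tested rows. All changes below are of the model over the control group, with p adjusted over the 499 rows. Without a filter on low counts, miR-148a-3p was called lower, with a log2 fold change of -0.58 (edgeR adjusted p = 0.0265), and 1414 rows then entered the fit. Under the 13 other alternatives its adjusted p ran from 0.0727 to 0.558.

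miR-148a-3p was at 21379, 20423 and 21034 CPM in model replicates 56, 57 and 59, against 23000.4, 24089 and 44712 CPM in control replicates 43, 44 and 45. Each model library lay below each control library, as in 16.6% of all tested rows, and the model libraries had a coefficient of variation of 2.31%. The mean was 20945 ± 484 CPM in model and 30600.2 ± 12233 CPM in control libraries (SD, n = 3 each), a log2 fold change of -0.55 (SE 0.25; adjusted p = 0.238, edgeR). The spread of the controls came from control replicate 45, at 2.09 times the median of the other libraries. Without it the log2 fold change was -0.20 (edgeR adjusted p = 0.311). Among the 32 tested rows of at least 10000 mean CPM, 30 had a negative log2 fold change and the median was -0.37, so negative values were common at the level of miR-148a-3p.

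miR-152-3p, the second guide by level, was at 3089, 2389.8 and 3561 CPM in model replicates 56, 57 and 59, against 2197, 1990.0 and 7339 CPM in control replicates 43, 44 and 45. The groups overlapped only through control replicate 45: the 3 model libraries lay above controls 43 and 44 and below control 45. The log2 fold change was -0.35 (SE 0.51; adjusted p = 0.753, edgeR) with all libraries. It changed sign without control replicate 45, to 0.50 (edgeR adjusted p = 0.239). The control libraries had a coefficient of variation of 78.9% and the model libraries one of 19.6%.

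miR-148b-3p had 131, 187 and 209 counts in model replicates 56, 57 and 59, against 127, 119 and 89 in control replicates 43, 44 and 45, and counting error alone gave exact 95% Poisson intervals such as 182 to 239 for the highest and 71.5 to 109.5 for the lowest of these. Scaled, it was at 48.5, 57.4 and 62.5 CPM in model libraries, against 48.9, 57.9 and 53.4 CPM in control libraries. It was the tested arm with the narrowest range, its highest library at 1.29 times its lowest, and the only tested arm for which control replicate 45 was inside the range of the other libraries. The log2 fold change was 0.07 (SE 0.23; adjusted p = 0.891, edgeR).

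The 5p partner strands were much scarcer. miR-148a-5p was at 387, 224 and 378 CPM in model replicates 56, 57 and 59, against 301, 220.0 and 675 CPM in control replicates 43, 44 and 45. Its groups overlapped, with a log2 fold change of -0.27 (SE 0.45; adjusted p = 0.787, edgeR) that became 0.31 without control replicate 45 (edgeR adjusted p = 0.603). miR-152-5p was at 18.9, 27.3 and 13.5 CPM in model libraries, against 23.9, 15.6 and 39.6 CPM in control libraries, in the same order of replicates. Its groups overlapped as well (log2 fold change -0.40, SE 0.43; adjusted p = 0.652, edgeR). miR-148b-5p did not pass the filter on low counts, with 2, 9 and 9 counts in model replicates 56, 57 and 59, against 4, 5 and 4 in control replicates 43, 44 and 45. At this depth a difference in it was not detectable, since the exact 95% Poisson interval of 4 counts is 1.09 to 10.2 and that of 9 counts is 4.12 to 17.1.

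**Figure D2:**
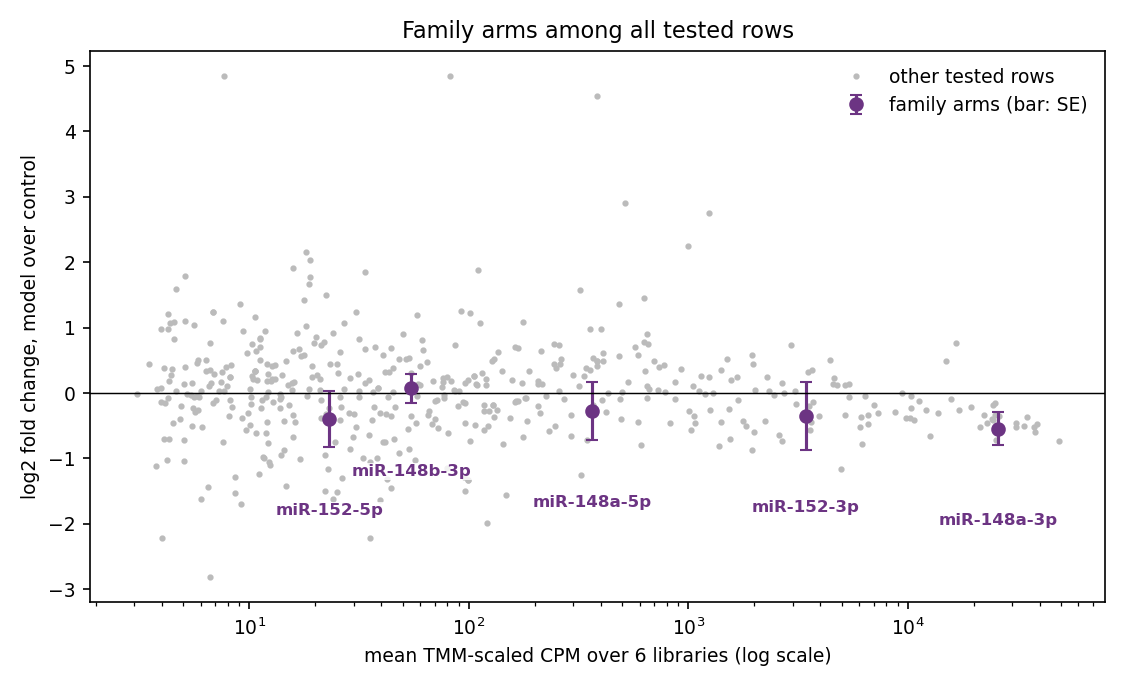
Log2 fold change of the model over the control group against mean TMM-scaled CPM (log scale) for the 499 tested rows, with the 5 tested family arms in purple and their SE as bars. The family arms lie between -0.55 and 0.07, inside the cloud of the other rows, and miR-148a-3p lies among the abundant rows that are mostly below 0.

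Control replicate 45 stood apart in the family, and its part in each result is given by the values without it. It was the highest library for both arms of miR-148a and both arms of miR-152, at 2.09 times the median of the other libraries for miR-148a-3p, 2.24 times for miR-148a-5p, 3.07 times for miR-152-3p and 2.09 times for miR-152-5p. For miR-148b-3p it was at 0.930 times that median. Over all tested rows it was the highest library in 94 of 499, and at least 1.5 times the next library in 28. That number was 29 for control replicate 44 and 2 for control replicate 43. For model replicates 56, 57 and 59 it was 13, 11 and 8. Its total count was the lowest, 1943693, and its counts were also the smallest share of the total behind the authors' RPM values, 7.17%. Whether these features are linked to its high family levels was not tested.

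The acinar-enriched miRNAs of the miR-216a, miR-216b and miR-217 hairpins differed among themselves in how far they shared the high level in control replicate 45. Of their 6 arms, all tested, 0 passed the threshold in either direction, all 6 had negative log2 fold changes with a median of -0.49, and 5 had every model library below every control library, where 16.6% of all tested rows did. At an unadjusted p under 0.05, 3 of the 6 were lower (edgeR), where 62 of all 499 tested rows were. DESeq2 called 1 of the 6, miR-216a-3p, where it called 19 of the 499 rows higher and 19 lower. miR-217-5p resembled miR-152-3p, at 1411, 1218 and 1947 CPM in model replicates 56, 57 and 59, against 1414, 909 and 4138 CPM in control replicates 43, 44 and 45. Control replicate 45 was at 2.93 times the median of the other libraries for miR-217-5p, and at 1.15 times for miR-217-3p, the other strand of the hairpin. The log2 ratio of 5p over 3p counts of miR-217 averaged -0.09 ± 0.40 in model and -0.46 ± 1.33 in control libraries (SD, n = 3 each). The difference of 0.37 had an SE of 0.66 (limma adjusted p = 0.887). Control replicate 45, at 0.99, was above every model library, and controls 43 and 44, at -0.75 and -1.61, were below them. The acinar guide miR-216b-5p was at 5380.3, 5292 and 5780.4 CPM in model libraries, against 7023, 7722 and 8186 CPM in control libraries (log2 fold change -0.48, SE 0.14; adjusted p = 0.0995, edgeR). Its groups were apart with all libraries, which leaving out control replicate 45 cannot change.

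**Figure D3:**
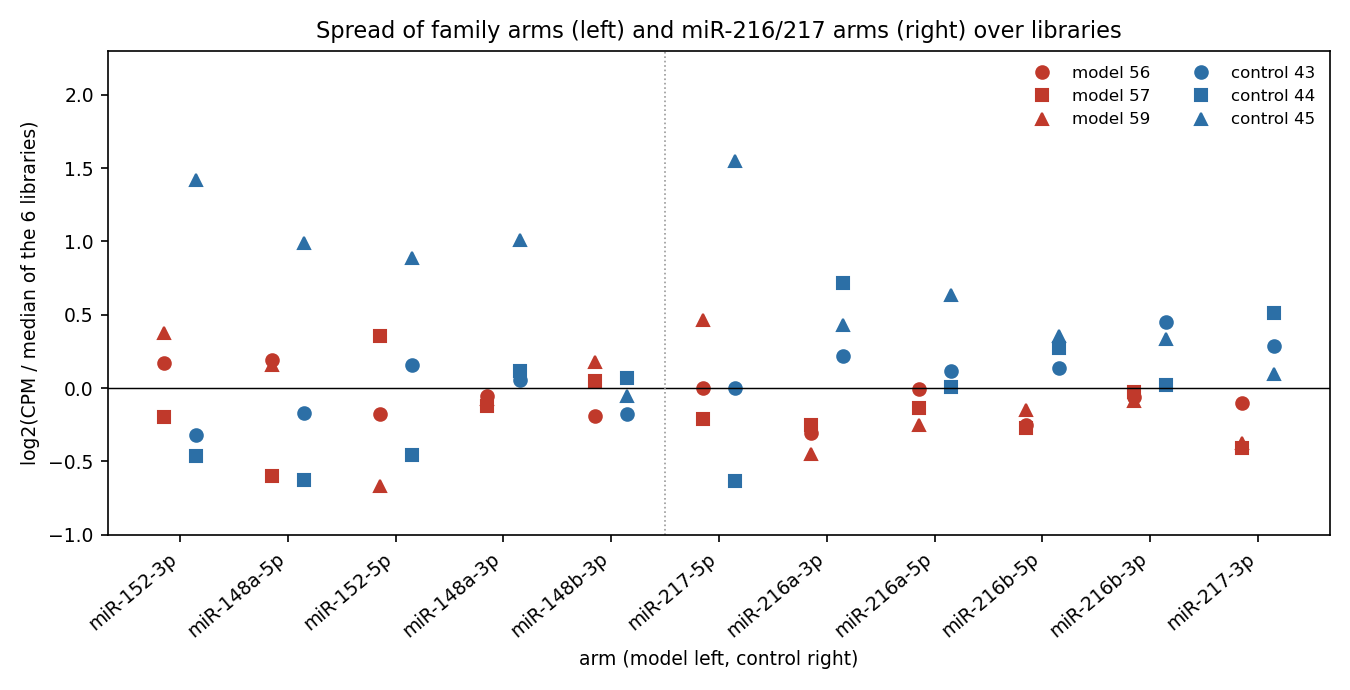
Log2 of CPM over the median of the 6 libraries for 5 family arms (left of the dotted line) and 6 arms of miR-216a, miR-216b and miR-217 (right), with 1 point per library. Control replicate 45 stands at 0.89 to 1.42 for the arms of miR-148a and miR-152 and at 1.55 for miR-217-5p, while for miR-148b-3p it stands at -0.05.

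Within a library, ratios between counts need no scaling between libraries. The 3 guides together took 2.66%, 2.48% and 2.86% of all counts in model replicates 56, 57 and 59, against 2.49%, 2.25% and 4.47% in control replicates 43, 44 and 45, with exact 95% binomial half-widths of at most 0.0291 percentage points. All model shares lay inside the range of the control shares. miR-148a-3p made up 87.3% ± 2.00 of guide counts in model and 89.7% ± 3.40 in control libraries, miR-152-3p 12.5% ± 2.00 in model and 10.1% ± 3.47 in control libraries, and miR-148b-3p 0.234% ± 0.0312 in model and 0.173% ± 0.0624 in control libraries (SD, n = 3 each). The family seed was thus present almost wholly on miR-148a-3p and miR-152-3p in both groups.

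Per count of miR-152-3p there were 6.92, 8.55 and 5.91 counts of miR-148a-3p in model replicates 56, 57 and 59, against 10.5, 12.1 and 6.09 in control replicates 43, 44 and 45. Control replicate 45 lay with the model libraries here, below controls 43 and 44. The log2 ratio averaged 2.82 ± 0.27 in model and 3.20 ± 0.52 in control libraries (SD, n = 3 each), a difference of -0.38 (two-sided exact permutation p = 0.3, adjusted p = 0.45 over 3 pairs of guides). The log2 ratio of miR-148a-3p to miR-148b-3p averaged 8.55 ± 0.20 in model and 9.10 ± 0.54 in control libraries, a difference of -0.54 (two-sided exact permutation p = 0.2, adjusted p = 0.45). For miR-148b-3p to miR-152-3p the difference was 0.16 (two-sided exact permutation p = 0.9, adjusted p = 0.9). With 3 libraries against 3 this test cannot go below 0.1.

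The 3p strand outnumbered the 5p strand in every library for all 3 hairpins. Per count of miR-148a-5p there were 55.3, 91.2 and 55.7 counts of miR-148a-3p in model replicates 56, 57 and 59, against 76.5, 109 and 66.3 in control replicates 43, 44 and 45. With 1 count added to each strand, the log2 ratio of 5p over 3p was -6.03 ± 0.41 in model and -6.36 ± 0.37 in control libraries (SD, n = 3 each). The difference of 0.33 had a 95% interval of -0.52 to 1.17 (limma adjusted p = 0.791 over 128 hairpins, of which 0.781% passed). Per count of miR-152-5p there were 163, 87.5 and 265 counts of miR-152-3p in model libraries, against 92.0, 128 and 185 in control libraries, in the same order of replicates. The log2 ratio differed by -0.27, with a 95% interval of -1.42 to 0.88 (limma adjusted p = 0.887). Both intervals include changes in either direction of more than 0.5, so moderate shifts in strand choice were not detectable. For miR-148b the 5p strand was under the minimum of 10 mean counts. With a minimum of 5, its log2 ratio differed by -0.30 (limma adjusted p = 0.893). There were 65.5, 20.8 and 23.2 counts of the 3p strand per 5p count in model replicates 56, 57 and 59, against 31.8, 23.8 and 22.3 in control replicates 43, 44 and 45.

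**Figure D4:**
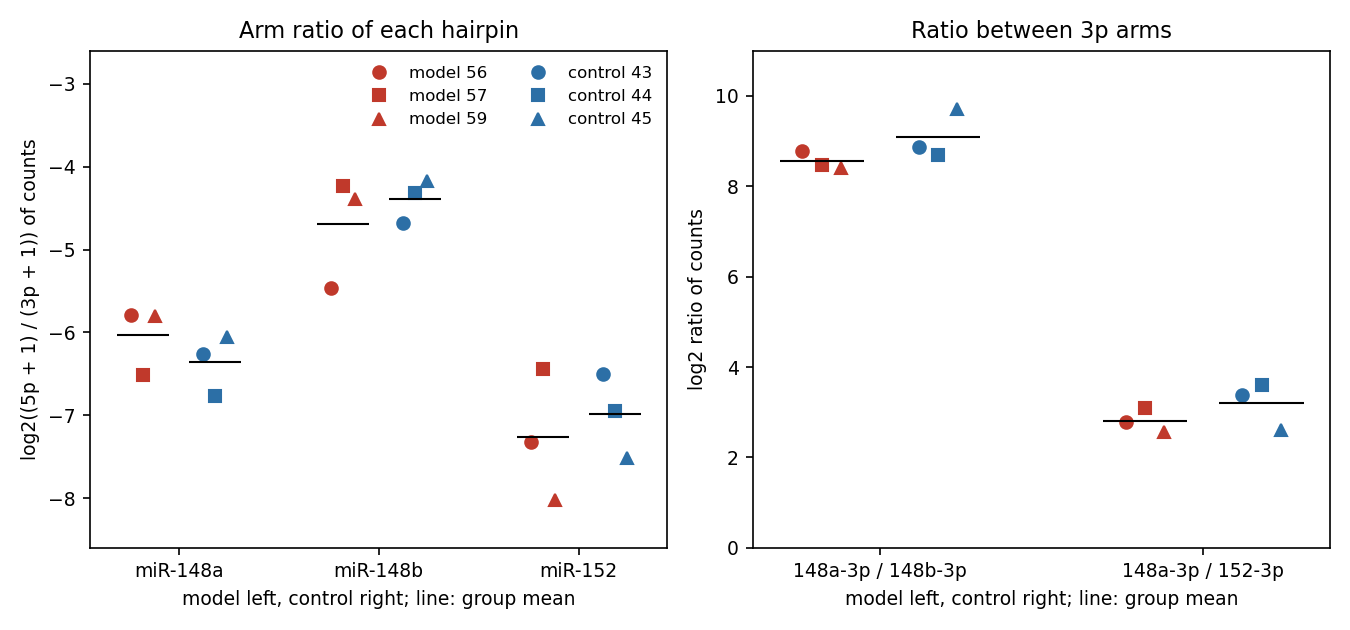
Left, log2 ratio of 5p to 3p counts (1 added to each) of the 3 hairpins, and right, log2 ratio of miR-148a-3p to miR-148b-3p and to miR-152-3p counts, with 1 point per library, model left and control right, and group means as lines. The groups overlap in all 5 ratios, and control replicate 45 has the highest ratio of miR-148a-3p to miR-148b-3p, at 9.71.

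The direction of the family's changes depended on what the libraries were scaled to. Counts in the table made up 10.2% to 13.6% of the total behind the authors' deposited RPM values in model libraries and 7.17% to 9.43% in control libraries, and no source used here says what that total counts. In those RPM values miR-148a-3p was at 2372, 3019 and 2898 in model replicates 56, 57 and 59, against 2142, 1815 and 2752 in control replicates 43, 44 and 45. miR-152-3p was at 343, 353 and 491 RPM in model libraries, against 205, 149.9 and 452 RPM in control libraries. Model means were thus above control means on this scale and below them in TMM-scaled CPM. With the authors' totals in edgeR all 5 tested arms had positive log2 fold changes, from 0.30 for miR-148a-3p (edgeR adjusted p = 0.309) to 0.88 for miR-148b-3p (edgeR adjusted p = 0.079), but the median of all rows was then 0.79. miR-148a-3p was below that median by 0.49, against 0.55 below it with TMM. Its place among the tested rows was similar under all 5 scalings, with 16.2% to 18.8% of rows having a lower value. That of miR-148b-3p was near the middle, with 54.5% to 55.7%. All 5 scalings included control replicate 45, and these places depended on the libraries used. With TMM, 37.5% of rows were lower than miR-148a-3p without control replicate 45, and 11.4% without control replicate 44. For miR-152-3p it was 27.9% with all libraries and 73.6% without control replicate 45.

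**Figure D5:**
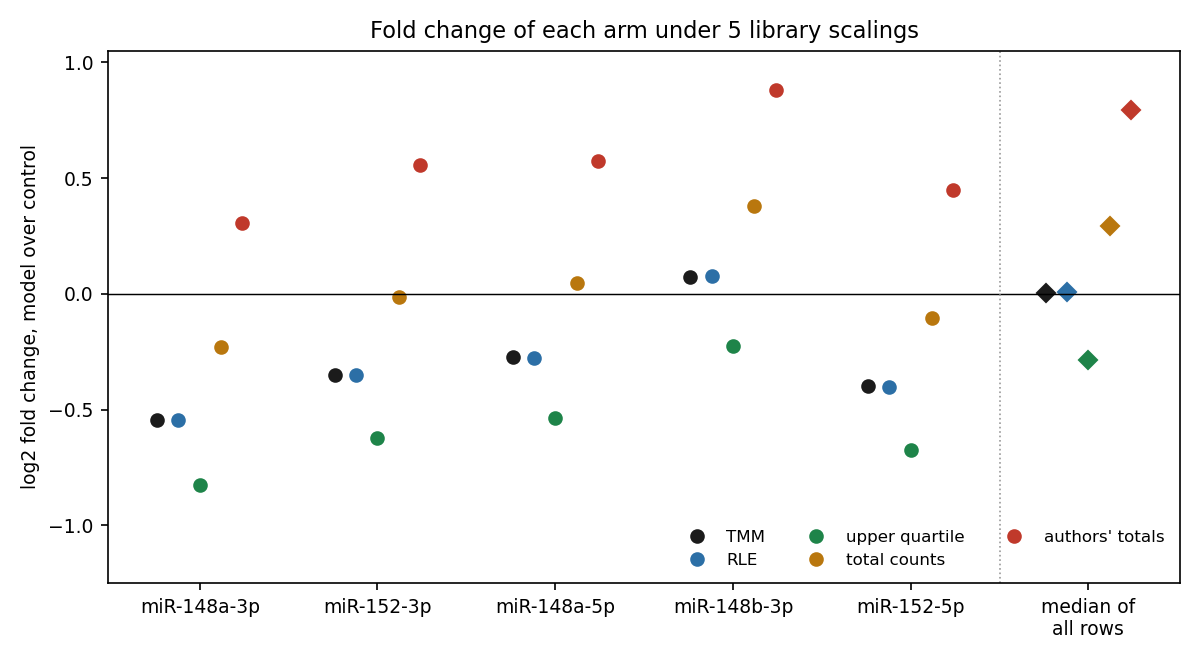
Log2 fold change of the model over the control group for the 5 tested family arms under 5 scalings of the libraries (circles), and the median over all 499 rows under the same scalings (diamonds). The arms move together with the median, from upper quartile factors (lowest) to the authors' totals (highest), and only the authors' totals put all 5 above 0.

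The rows whose levels followed each guide most closely over the 6 libraries differed between the guides. Likeness was measured as Pearson's r of log2 CPM over 6 libraries, among 361 known rows outside the family with at least 10 mean CPM, and is a description of rows picked for it. For miR-148a-3p the closest were epithelial miR-141-3p (r = 0.97, and 0.81 without control replicate 45), miR-30b-5p (0.96 and 0.58), acinar miR-216a-5p (0.95 and 0.69) and miR-125a-5p (0.95 and 0.31). Each of these was lower without control replicate 45. Without controls 44 and 45, the libraries farthest from the median of miR-148a-3p, r was 0.74, 0.25, 0.81 and 0.57 in the same order. For miR-152-3p they were miR-125b-5p (0.98 and 0.92), miR-217-5p (0.97 and 0.86), miR-30a-5p (0.96 and 0.92) and miR-29b-3p (0.95 and 0.75). Without controls 44 and 45, the farthest libraries here too, r was 0.92, 0.77, 0.94 and 0.63. miR-125b-5p, the closest, was at 5256, 3594 and 6166 CPM in model replicates 56, 57 and 59, against 4177, 2596 and 14715 CPM in control replicates 43, 44 and 45. For miR-148b-3p they were miR-425-5p (0.97 and 0.98), miR-532-5p (0.87 and 0.95), miR-92a-3p (0.86 and 0.89) and miR-192-5p (0.77 and 0.83). Control replicate 45 was not among the libraries farthest from the median of miR-148b-3p, which were model 56 and control 43. Without them r for miR-532-5p was 0.47, against 0.97 for miR-425-5p, 0.87 for miR-92a-3p and 0.74 for miR-192-5p. Of these 12 rows 0 passed the threshold between the groups with edgeR, where 6 of all 499 tested rows did. DESeq2 also called 0 of them, where it called 19 of the 499 rows higher and 19 lower. With edgeR 0 of the 12 had an unadjusted p under 0.05, where 57 of the 499 rows were higher and 62 lower. The 12 were picked for following guides that did not pass either.

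Inside the family, the same measure between tested arms was 0.81 for miR-148a-3p with miR-152-3p over 6 libraries and -0.68 without control replicate 45. It was 0.95 for miR-148a-5p with miR-152-3p and 0.84 without that library. For miR-148a-3p with its own partner miR-148a-5p it was 0.76 and -0.33. The guide of miR-148a and its partner strand were thus alike in control replicate 45 but not over the remaining 5 libraries.

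Lists of markers of other cells are given beside the family's levels. Leukocyte-enriched miRNAs had 8 tested members of 8, of which 1 was higher, where 1.00% of all tested rows were higher, and 0 were lower. The member called was myeloid miR-223-3p, at 2232, 2133 and 2121 CPM in model replicates 56, 57 and 59, against 471, 247 and 246 CPM in control replicates 43, 44 and 45 (log2 fold change 2.75, SE 0.31; adjusted p = 0.0077, edgeR). The summed level of the list was 5537 to 12303 CPM in model and 4871 to 7254 CPM in control libraries. It joined members of both directions, as 7 of the 8 had positive and 1 had a negative log2 fold change. The negative one was miR-150-5p, at -0.35, a large part of the sum in most libraries. It was at 1429, 5840 and 3093 CPM in model libraries, against 5235, 4259 and 3717 CPM in control libraries, in the same order of replicates. The summed level of the islet list was 40224 to 53795 CPM in model and 60209 to 82689 CPM in control libraries, with 0 of 5 tested members past the threshold. Most of this sum was miR-375-3p, and of the 5 tested members 3 had negative and 2 had positive log2 fold changes. For the endothelial list the sum was 32211 to 37872 CPM in model and 40568 to 47690 CPM in control libraries, with 0 of 2 past the threshold. Most of it was miR-126a-3p, with a log2 fold change of -0.36. The other member, miR-126a-5p, was at 0.12, and its groups overlapped. For the epithelial list the sum was 73912 to 80966 CPM in model and 89702 to 106561 CPM in control libraries, with 0 of 5 past the threshold. The islet, endothelial and epithelial sums came mostly from rows above 10000 mean CPM. Of the 32 tested rows at that level 30 had a negative log2 fold change, with a median of -0.37. These sums are in TMM-scaled CPM, and with the authors' totals the median of all rows was 0.79. The mesenchymal list overlapped, with 17390 to 20997 CPM in model and 18165 to 28062 CPM in control libraries and 0 of 6 past the threshold, as did the erythroid list, with 7110.2 to 12098 CPM in model and 10652 to 13635 CPM in control libraries and 0 of 5. At an unadjusted p under 0.05 with edgeR, 2 islet, 1 endothelial and 3 epithelial members were lower, where 62 of all 499 tested rows were. At the same cut 1 mesenchymal and 4 leukocyte members were higher, where 57 of the 499 rows were. The erythroid list had 0 members in either direction. DESeq2 called 4 of the leukocyte list, 1 of the islet list, miR-129-5p, and 0 of the other lists of this paragraph. Over all 499 tested rows it called 19 higher and 19 lower. No member of any of these lists was at 0 in all libraries. Whether these marker levels are linked to the family's levels was not tested.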

How the data were processed

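Small RNA of 18 to 30 nt from pancreas was ligated to adapters with molecular identifiers, per the labels' protocols. The authors deposited 1 table of whole-number read counts per mature arm, per the file headers, and RPM values, whose divisor, recovered here from rows of at least 100 counts, was 22055639 to 27876715 per library. The submitters' processing notes name Bowtie2 and GRCm38.p6 without a role, and do not say whether identifiers were collapsed. Intervals therefore cover counting error only. Groups were read from sample titles, and 0 per-sample columns were left without a library.

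The count test was that of edgeR 4.0.16 (R 4.3.3): filterByExpr (minimum count 10, minimum total 15), TMM, robust dispersions, two-sided quasi-likelihood test, Benjamini-Hochberg over 499 rows. Log2 5p to 3p ratios were tested with limma 3.58.1 over the 128 hairpins with at least 10 mean counts on both arms. Ratios between guides were tested by exact permutation. Log2 CPM for likeness used a prior count of 2. DESeq2 1.42.0 was an alternative. Tests across rows were checked on simulated data with the same dispersion for every row and changes larger than those of the family arms. That check does not show whether changes of the family's size could be found here. Members, lists and rules were chosen with earlier results of these data known. Named were the 6 members, the 4 rows most like each guide, rows with the family seed, acinar miRNAs and called members of the marker lists. miR-375-3p, miR-126a-3p, miR-126a-5p and miR-150-5p were named outside this rule.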

Additional observations from a re-analysis of the deposited data

How the results depend on the processing

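No paired analysis was possible because the groups share no replicate numbers. No family arm passed the threshold under any alternative, apart from miR-148a-3p without a filter on low counts. Rows called over the whole table, higher and lower, numbered 5 and 1 with TMM, 7 and 8 with RLE factors, 6 and 39 with upper quartile factors, 124 and 2 with the authors' totals, 17 and 1 with total counts alone, 23 and 35 without a filter, 19 and 19 with DESeq2, and 4 and 2 with the other dispersion setting of glmQLFit, which was chosen after seeing the data. Without 1 library they ran from 3 to 5 and from 0 to 5.

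Log2 fold changes that turned sign were those of miR-148a-3p (0.30), miR-148a-5p (0.57), miR-152-3p (0.56) and miR-152-5p (0.45) with the authors' totals, miR-148a-5p with total counts (0.046), miR-148b-3p with upper quartile factors (-0.23) and without control replicate 43 (-0.0043), and miR-148a-5p (0.31) and miR-152-3p (0.50) without control replicate 45. Without 1 library they ran from -0.57 to 0.31 for miR-148a-5p, -0.0043 to 0.21 for miR-148b-3p and -0.67 to 0.50 for miR-152-3p. The difference in the guides' share of all counts was -0.41 percentage points, 0.0657 of the authors' totals, and -0.82 to 0.29 without 1 library, positive without control replicate 45. The difference in the log2 5p to 3p ratio of miR-152 ran from -0.68 to 0.11 without 1 library, positive without model replicate 59. The difference in the log2 ratio of miR-148b-3p to miR-152-3p ran from -0.44 to 0.56 without 1 library. It was negative without control replicate 45 and, at -0.01, without model replicate 57. Apart from the scalings and left-out libraries, the cause was not tested. Depth limits miR-148b-5p, at 33 counts over all libraries.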

Other observations

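miR-532-5p, one of the rows most like miR-148b-3p, was at 12.6, 3646 and 3413 CPM in model replicates 56, 57 and 59, against 10.8, 3902 and 2995 CPM in control replicates 43, 44 and 45. The same libraries, model 56 and control 43, were the lowest for miR-148b-3p, at 48.5 and 48.9 CPM, where the gap to the others was small.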
